A study of Mus musculus with 31 samples.

Results

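The cytosolic ribosomal protein genes were followed across 31 Affymetrix mouse expression arrays, 1 array per sample. Members were the probe sets whose only annotated gene symbol was Rpl or Rps followed by a digit, or Rplp0, Rplp1, Rplp2 or Rpsa, without S6 kinases, pseudogenes and related sequences. Each gene was represented by its probe set of highest mean over the 31 arrays. This gave 50 members of 18193 genes, namely 26 large-subunit genes, 23 small-subunit genes and Rps19bp1, a binding partner of the Rps19 protein that matches the symbol pattern without being a ribosomal protein. Of the 50, 47 were tested after a filter on low intensities (above the table median of 39.82 on at least 2 arrays), out of 12169 genes tested. The 3 members left out were Rps16 (mean 9.54), Rpl3l (12.2) and Rpl39l (14.6). A further 31 ribosomal protein genes were annotated solely on probe sets that carry several symbols and could not be named singly.

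The labels describe CD4 T cells sorted from spleen and lymph nodes of reporter mice, in which EGFP marks cells that transcribe Foxp3, the transcription factor that defines regulatory T cells (Treg). Bicistronic Foxp3/EGFP mice gave 7 groups. Conventional T (3 arrays, Foxp3-negative) and natural Treg (4 arrays, Foxp3-positive) were not activated. Activated T (4 arrays) were conventional cells given antibodies to CD3 and CD28 without TGF-beta, and activated natural Treg (3 arrays) were natural Treg given the same antibodies with TGF-beta. Induced Treg (5 arrays) were conventional cells that switched on the reporter after 3 days of those antibodies with TGF-beta, and failed induced Treg (3 arrays) were the cells that stayed reporter-negative in those cultures. Induced Treg with IL-2 (2 arrays) then spent 1 week with interleukin 2, at 100 units per ml. The mutant reporter allele Foxp3deltaEGFP gave 3 groups: induced Foxp3-delta (3 arrays) and induced Foxp3-delta with IL-2 (2 arrays), made in the same ways from mutant males per the labels, and natural Foxp3-delta (2 arrays), precursors sorted unactivated from heterozygous females. Nothing in the labels ties the arrays of a group to separate animals or cultures. The p-values therefore cover the spread among these samples alone, and that spread may be technical.

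The ribosome is built from ribosomal RNA and about one copy each of a large set of proteins, assembled in the nucleolus into a small subunit, which decodes the message, and a large subunit, which joins amino acids. Because the proteins are needed in equal numbers, their genes are expressed at high and coordinated levels in nearly all cells. Many of their messages start with a run of C and T letters, through which the mTOR pathway controls their translation. T cells stimulated through CD3 and CD28 are known to enlarge and to make more ribosomes as they prepare to divide.

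The labelled cell type was not borne out by the values, which bears on every result here. Foxp3 lay between 9.59 and 16.9, Cd3d between 11.2 and 16.7, and Cd4 between 14.7 and 33.5 on the 31 arrays, all under the table median of 39.82. Cd3e lay between 23.7 and 64.1, crossing it. Of the lists, 4 of 14 measured T cell markers and 8 of 15 measured Treg markers passed the filter. Mbp, the major protein of myelin, lay between 17140 and 21280, Snap25, a synaptic protein, between 8773 and 13390, and Gfap, the astrocyte filament, between 4098 and 6217. Each marker was ranked by its brightest probe set among all probe sets of the array. The median percentile of the neuron, myelin and astrocyte markers was 99.3, 99.3 and 99.1, against 32.1 for the T cell markers. The groups are therefore named by their labels only, and whether the labels belong to these arrays was not tested. In bulk RNA, fewer cells of a type and less RNA per cell cannot be told apart.

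Ribosomal protein genes were among the brightest on every array. The median member, by its brightest probe set, stood at a percentile of all probe sets between 99.1 and 99.3, depending on the array. After quantile normalisation, the 46 tested ribosomal members together made up between 1.66% and 1.71% of the summed intensity. Each was taken by its probe set of highest mean. That scaling gives all arrays the same distribution, and so the same total, and removes shifts shared by the brightest genes. The narrow range is therefore largely set by the scaling and does not show that the share was constant. Of the 50 members, 35 had a mean above 1000, in a range from 2872 for Rpl22l1 to 13160 for Rpl37a. Levels of different genes were not ranked against each other, because probes differ in how strongly they bind. Some core genes of the ribosome were represented just by dim probe sets, among them Rpl12 (mean 49.6), Rpl39 (76.5), Rpl14 (93.2), Rps27 (94.1), Rps25 (94.7) and Rpl27a (114).

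The start sites of these genes are shown because many members share letters there that the choice of members did not use. The following windows run from 20 bases before to 10 bases after the start (RefSeq, build GRCm38.p6), 5′ to 3′ on the strand of the gene, with the longest run of C and T letters in capitals. They belong to Rpl7a and Rpl4, large-subunit proteins, and to Rps6, Rps24, Rps27 and Rps9, small-subunit proteins that recur in the comparisons. These windows all hold a run of at least 8 such letters, which many other members lack. In Rpl4 it lies wholly before the annotated start, from base -18 to -5. Rps24 has a second annotated start, where the longest run is 7. Rps19, the member with the lowest adjusted p in the comparisons, comes last and has no such run there.
Rpl7a, chr2:26910787-26910816, plus strand: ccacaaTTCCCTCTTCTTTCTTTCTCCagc
Rpl4, chr9:64173367-64173396, plus strand: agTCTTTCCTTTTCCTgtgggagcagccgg
Rps6, chr4:86857358-86857387, minus strand: gggttaagcggaagtcgggCCTCTTTTTCg
Rps24, chr14:24490658-24490687, plus strand: acgcccccgcgctggggTCCTTCCTTgcgc
Rps27, chr3:90213639-90213668, minus strand: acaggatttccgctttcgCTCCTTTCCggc
Rps9, chr7:3704021-3704050, plus strand: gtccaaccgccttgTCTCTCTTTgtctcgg
Rps19, chr7:24884572-24884601, plus strand: agcactccgaaatctcgcgagactcgacgc

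The table of start sites held 43 of the 49 ribosomal members. A run of at least 8 C or T letters within 25 bases either side of a start was found in 23 of the 43 (53.5%), against 22% of 17447 other protein-coding genes. The motif CCGGAAG, bound by ETS-family factors, was found on either strand of the 300-base promoter in 21 of the 43 (48.8%), against 12.9% of the others. AAGATGG, the core of the YY1 motif, was in 18.6% against 7.2%. The other motifs searched were nearer the background, with GGGCGG (the Sp1 box) in 58.1% against 49.2%, CACGTG (the E-box that Myc binds) in 9.3% against 8.9%, and TATAAA in 14.0% against 14.8%. These are matches of letters in a window and say nothing of binding.

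Arrays were compared after quantile normalisation, as log2(intensity + 16), so log2 differences understate the change of dim genes. On this scale the family kept almost the same level on all 31 arrays. Taking each gene's deviation from its own mean, the median of the ribosomal members was between -0.03 and 0.04 on every array. Group means of that median ran from -0.02 (conventional T) to 0.01 (natural Foxp3-delta). The balance between subunits also moved little: the median of the large-subunit genes minus that of the small-subunit genes lay between -0.05 and 0.06. Quantile normalisation gives all arrays 1 distribution, so it removes any shift that the brightest genes share, and the level of the whole family is not measured by it.

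**Figure D1:**
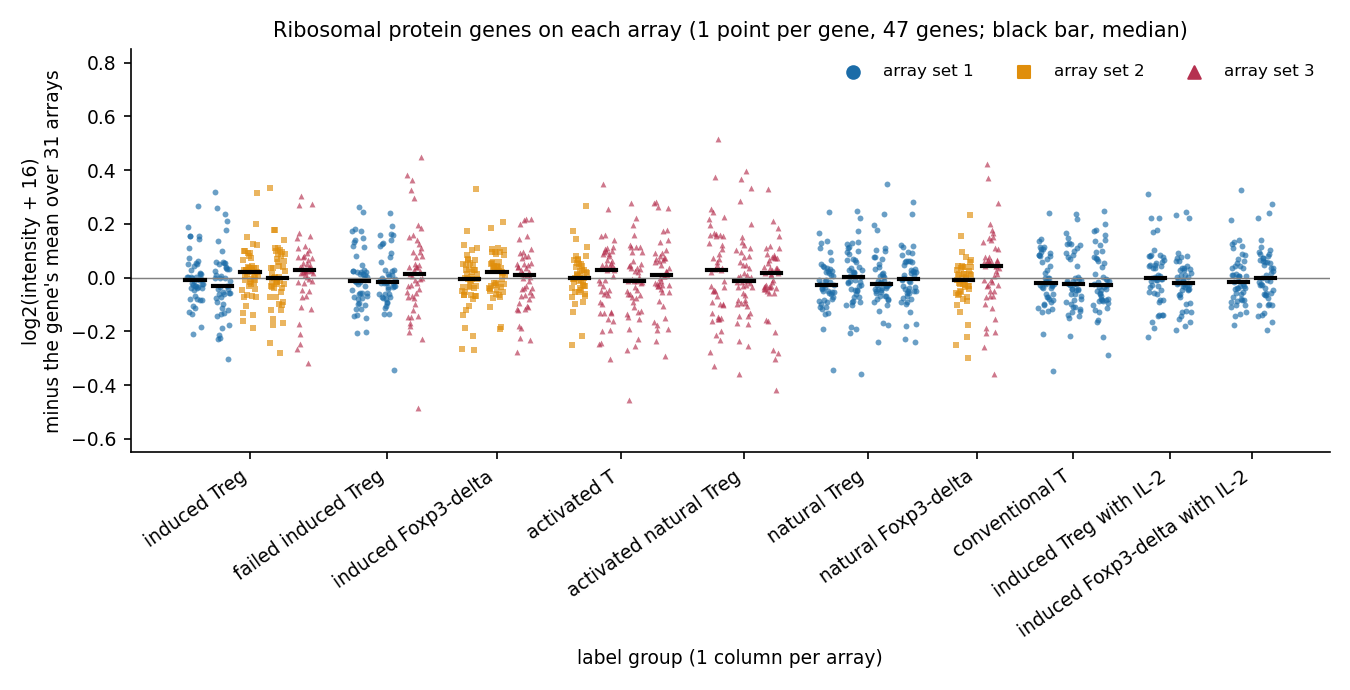
Each point is 1 of the 47 tested members on 1 array, plotted as log2(intensity + 16) minus the mean of that gene over the 31 arrays; columns are arrays in their label groups, and colour and shape give the array set. The black bars, the medians, stay near 0 on every array, between -0.03 and 0.04, while single genes spread more widely on either side.

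After quantile normalisation most members varied less between arrays than other genes did. The median SD over the 31 arrays was 0.094 for the 47 tested members, against 0.16 for all 12169 genes tested. For the 35 members above 1000 it was 0.081, against 0.13 for the 527 other genes within the same range of mean intensity. The order turned under the other scalings: the median SD of members and of all genes was 0.38 and 0.35 with values as deposited, 0.40 and 0.19 with array medians, and 0.38 and 0.18 with array 75th percentiles. Once the shift shared by the family (or by all genes) was subtracted from each array, it was 0.14 and 0.18 under each of these 3. These are descriptions, with no test, since genes on 1 set of arrays are not independent replicates. Between label groups lay 48.6% of the variance of the median member and 41.1% of that of the median tested gene, where 10 groups of 31 arrays take 30% without any difference.

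**Figure D2:**
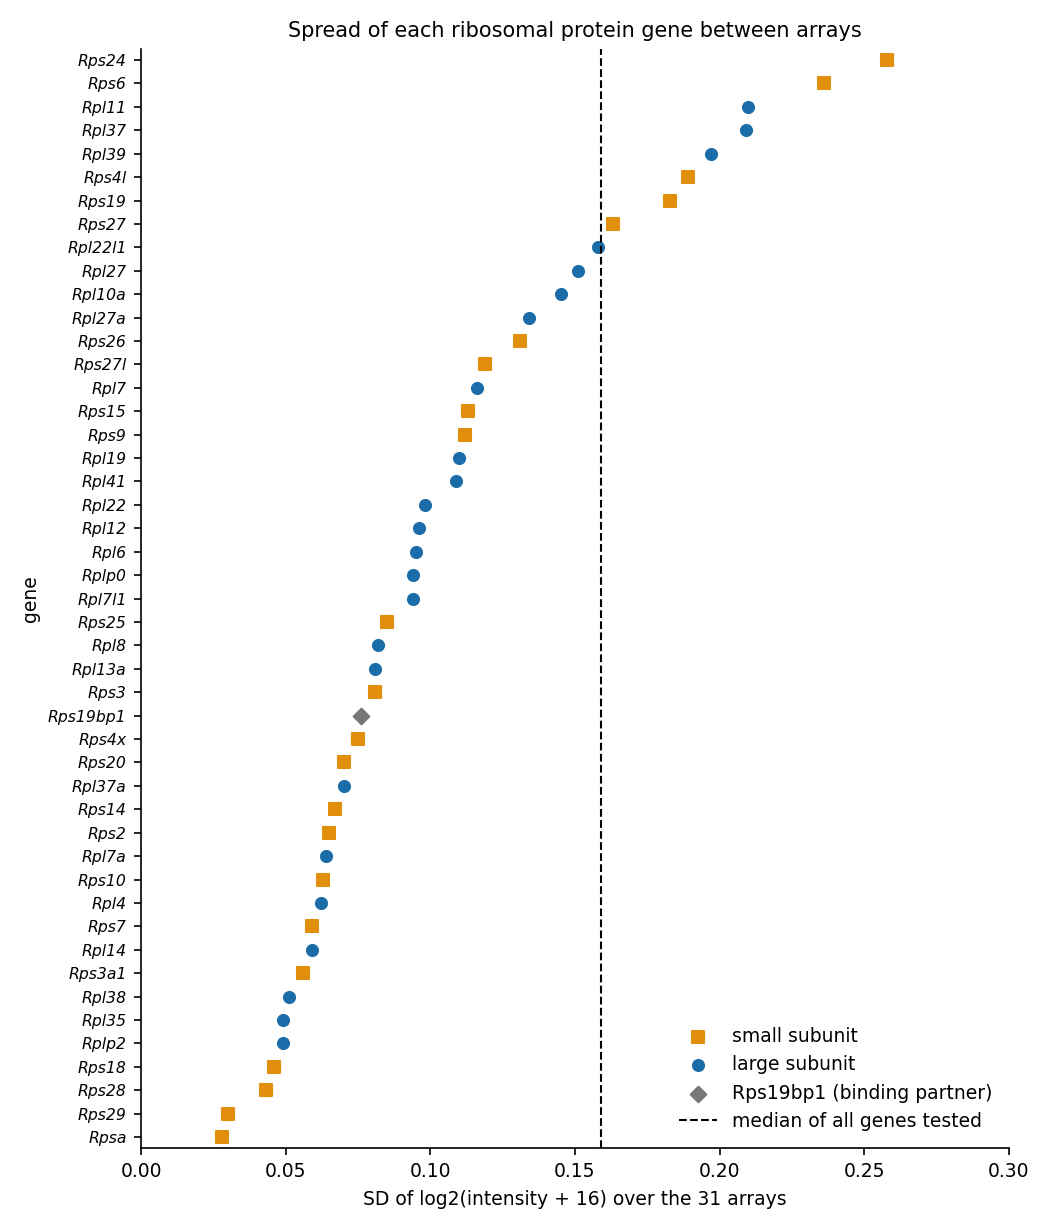
Each point is the SD of 1 member's log2(intensity + 16) over the 31 arrays, ordered by size, with large-subunit genes as circles, small-subunit genes as squares and Rps19bp1 as a diamond. The dashed line is the median of all genes tested (0.16); 8 members lie to its right, from Rps27 up to Rps24 (0.26).

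The steadiest members, each by its brightest probe set, were 3 small-subunit genes. Rpsa, which is also known as the laminin receptor, had an SD of 0.028 and lay between 5222 and 5695 on all arrays. Its values were 5346, 5408 and 5393 on conventional T, 5502, 5583, 5379 and 5336 on activated T, 5341, 5549, 5346 and 5521 on natural Treg, and 5315, 5315 and 5542 on activated natural Treg. The 4 groups overlapped. Rps29, a zinc-binding protein, had an SD of 0.030, with 11440, 11760 and 11400 on conventional T, 11490, 12110, 11760 and 11920 on activated T, 11820, 11490, 11440 and 11920 on natural Treg, and 12050 on each of the 3 activated natural Treg arrays. Rps28 had an SD of 0.043, with 5840, 6028 and 6195 on conventional T, 6355, 6454, 6206 and 6323 on activated T, 5965, 5909, 5927 and 6323 on natural Treg, and 6355, 6195 and 6376 on activated natural Treg. Its activated T arrays were all above its conventional T arrays, but the difference of 0.07 did not pass the test (adjusted p = 0.36 by limma with Benjamini-Hochberg adjustment). The 2 other Rps28 probe sets varied more (SD 0.098 and 0.084) and were called in opposite directions in activated natural Treg (0.21 and -0.19). Of 527 other genes in the same range of intensity, 0.4% had a smaller SD than Rpsa.

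Rplp0, a stalk protein of the large subunit that is widely used as a reference gene for PCR, was not among the steadiest. Its SD was 0.094, the median of the members, and it ran from 4604 to 6090. Rplp0 read 5165, 4860 and 4964 on conventional T, 5051, 5619, 5859 and 5100 on activated T, 4866, 4998, 5055 and 5066 on natural Treg, and 5878, 5703 and 5283 on activated natural Treg. All activated natural Treg arrays were above all natural Treg arrays, yet no comparison called the gene.

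The arrays also fell into 3 sets by technical measures, the ratio of 2 spiked control RNAs (cre to bioB), the array median and the 99th percentile of intensity. The sets hold 15, 6 and 10 arrays, were defined from the data, and are not batches given by the labels. All conventional T, natural Treg and IL-2 arrays lay in set 1, all activated natural Treg arrays in set 3, and the activated T arrays in sets 2 (1 array) and 3 (3 arrays). For the median member 44.3% of the variance lay between these sets, against 24.2% for the median tested gene and 6.67% that 3 sets take without any difference. Above a mean of 1000 it was 44.4% for the ribosomal members and 28.9% for all genes tested. In 4 of 46 ribosomal members the arrays of set 1 did not overlap the 16 others, against a background of 2.38% of all genes tested. All 4 were among the 35 members above 1000 (11.4%), and of the 527 other genes in their range of intensity 4.93% were apart. These members were Rps24 and Rpl19, which were higher in set 1, and Rpl6 and Rpl7, which were lower. Rpl7 was apart by little, with at most 4719 in set 1 and at least 4731 in the others.

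Rps24, a small-subunit protein mutated in some patients with Diamond-Blackfan anaemia, varied most (SD 0.26). It read 8111, 8092 and 8153 on conventional T, 8127, 8153, 8073 and 8092 on natural Treg, 8002 and 8127 on induced Treg with IL-2, and 8609 and 8111 on induced Foxp3-delta with IL-2. On activated T it read 5896, 5549, 6634 and 5603, on activated natural Treg 6405, 6368 and 5557, on induced Foxp3-delta 5901, 6012 and 6368, and on natural Foxp3-delta 5885 and 5346. In 2 groups it was split: induced Treg read 8255, 8073, 6028, 5644 and 5493, and failed induced Treg 8127, 8111 and 4900. The high arrays of both groups were their set 1 arrays. Every array of set 1 was at 8002 or above and every other array at 6634 or below, and 90.1% of the gene's variance lay between sets.

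The next most variable members split in the same manner to differing degrees. Rpl11, a large-subunit protein known to bind Mdm2 and so to link ribosome assembly to p53, had an SD of 0.21. It read 6512, 6650 and 6681 on conventional T, 4978, 4985, 4912 and 5283 on activated T, 6650, 6462, 6783 and 6443 on natural Treg, and 6480, 5269 and 5753 on activated natural Treg. Its set 1 arrays lay between 6443 and 7381, and the others between 4889 and 6480. Rpl37, a large-subunit zinc-binding protein seen here through a dim probe set, ran the other way, with 174.7 to 201.8 in set 1 and 185.2 to 283.6 in the others (SD 0.21, 91.8% of variance between sets). On conventional T it read 188.9, 185.5 and 183.5, on activated T 193, 269.1, 227.5 and 252.2, on natural Treg 190.1, 178.1, 195.8 and 175.1, and on activated natural Treg 249.2, 256.6 and 265.4.

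Rps6, the small-subunit protein that S6 kinases phosphorylate downstream of mTOR, had an SD of 0.24. Its set 1 arrays lay between 304.8 and 419.7 and the others between 361.2 and 502.2. On conventional T it read 307, 361.6 and 320.6, on activated T 478.9, 428.5, 361.2 and 476.5, on natural Treg 307.9, 304.8, 347.8 and 332.2, and on activated natural Treg 368.1, 502.2 and 450.9. Activated and unactivated arrays overlapped for the T cell labels and were apart for the natural Treg labels. Rpl39, which lines the tunnel through which the new chain leaves, was dim, with 63.19, 62.83 and 66.18 on conventional T, 85.23, 81.91, 95.16 and 79.76 on activated T, 64.2, 64.67, 61.49 and 64.96 on natural Treg, and 56.96, 102.2 and 79.78 on activated natural Treg (SD 0.20). Of its variance 43.3% lay between sets.

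Activation of the conventional cells was the first comparison, activated T (4 arrays) against conventional T (3 arrays). In it 1 member was higher and 5 were lower, 6 of 47 in all, where 6.75% of all genes tested were called, 3.38% higher and 3.38% lower. The median difference over the members was 0.05, against 0.006 over all genes tested. The higher gene was Rps19, at 0.28 (SE 0.07), a small-subunit protein that is the gene most often mutated in Diamond-Blackfan anaemia. The lower genes were Rps24 by -0.46 (SE 0.14), Rpl11 by -0.39 (SE 0.10), Rps26 by -0.26 (SE 0.07), Rpl19 by -0.24 (SE 0.07) and Rps15 by -0.23 (SE 0.06), with adjusted p from 0.026 to 0.046 by limma. Rps26 sits where the message leaves the small subunit, Rps15 lies near the decoding centre, and Rpl19 takes part in a bridge between the subunits.

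Their arrays were apart. Rps26 read 4447, 3934, 3832 and 4053 on activated T and 4755, 4854 and 5026 on conventional T. Rps15 read 5814, 5365, 4998 and 5549 against 6269, 6405 and 6405, and Rpl19 8164, 8609, 8552 and 7574 against 9654, 9723 and 9798. Over all members, 13 were higher and 10 lower with no overlap between the groups, 23 of 47, while 22.7% of all genes tested had groups that did not overlap.

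No call of this comparison was kept when the model included the array set. The smallest adjusted p among members was then 0.36, and the differences of Rps24 and Rpl19 became 0.14 and 0.004. Rpl11 and Rps26 stood at -0.006 and -0.04, while Rps15 (-0.18) and Rps19 (0.17) kept more of their size. The 2 label groups share no set, so within the comparison label and set cannot be told apart, and the block rests on the other groups. Without activated T 2, without activated T 3, or without conventional T 1, 2 or 3, limma called 0 members, with 20 at an unadjusted p under 0.05 when all arrays were kept.

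The comparison of activated natural Treg with natural Treg gave more calls, for members and for genes at large. By the labels, activated natural Treg received the antibodies together with TGF-beta, while activated T received them without it and natural Treg were unactivated. Activation and TGF-beta therefore changed together here, and the part of each was not tested. Nor are the calls a like-for-like count beside those of activated T. Between activated natural Treg (3 arrays) and natural Treg (4 arrays), 6 members were higher and 5 lower, 11 of 47, where 16.7% of all genes tested were called, 8.64% higher and 8.01% lower. The median member differed by 0.03. Rps19 was again higher, at 0.53 (SE 0.07, 95% interval 0.38 to 0.68, adjusted p = 0.00033 by limma). Also higher were Rpl37 by 0.45 (SE 0.13), Rps6 by 0.42 (SE 0.13), Rpl7 by 0.26 (SE 0.08), Rps9, a small-subunit protein tied to decoding accuracy, by 0.26 (SE 0.07), and Rpl6 by 0.19 (SE 0.05). The lower genes were Rps24 by -0.41 (SE 0.14), Rps27, a zinc-binding small-subunit protein, by -0.40 (SE 0.09), Rps26 by -0.30 (SE 0.07), Rpl27 by -0.27 (SE 0.09) and Rps15 by -0.25 (SE 0.06). The adjusted p of the 10 genes other than Rps19 ran from 0.0059 to 0.046 by limma.

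The arrays behind these calls did not overlap. Rps9 read 7598, 7452 and 7231 on activated natural Treg against 6257, 6503, 6388 and 5753 on natural Treg, Rpl6 6283, 6731 and 6665 against 5797, 5766, 5635 and 5859, and Rpl7 6295, 5386 and 4731 against 4418, 4521, 4627 and 4558. Among the lower genes, Rps27 read 79.33, 83.14 and 65.85 against 95.91, 107.4, 101.2 and 117.2, Rps26 3829, 3989 and 3910 against 4801, 4820, 4854 and 4793, Rps15 5393, 5594 and 4958 against 6565, 6257, 6269 and 6240, and Rpl27 3429, 3189 and 3370 against 4111, 3989, 4038 and 3885. Groups did not overlap in 28 of 47 members, 17 higher and 11 lower, against 30% of all genes tested.

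Rps19 alone stayed called when the model included the array set, at 0.38 (adjusted p = 0.043 by limma). Rps27 (-0.49, adjusted p = 0.058) and Rps9 (0.32, adjusted p = 0.087) kept their size and fell short, while Rps24 and Rpl27 turned to 0.20 and 0.11. All natural Treg arrays lay in set 1 and all activated natural Treg arrays in set 3, so here too label and set cannot be told apart within the comparison. The ratio of 3′ to 5′ actin control probes, a sign of RNA quality, was 2.05 to 2.13 on activated natural Treg and 1.73 to 1.84 on natural Treg, with no overlap (for activated T and conventional T it was 1.62 to 1.99 and 1.79 to 1.80). Among markers of other cell types, Glul (astrocytes, -0.51), Cplx1 (neurons, -0.40) and C1qb (microglia, -0.30) were called lower in activated natural Treg, 1 of 9, 1 of 12 and 1 of 10 tested on their lists, and Cd3e was called higher (0.59, and 0.81 in activated T), 1 of 4. Over those lists in activated natural Treg, 5 of 9 astrocyte, 5 of 12 neuron and 6 of 10 microglia markers were higher (medians 0.02, -0.08 and 0.03). Of the 4 T cell markers, 3 were higher in activated natural Treg and 2 in activated T. In activated T, Rbfox3 (neurons, -0.71) was also called lower, 1 of 12, while 7 of the 12 were higher (median 0.01). Of 8 Treg markers tested, 5 were called in activated natural Treg (3 higher, 2 lower) and 1 in activated T (lower). None of these marker calls was kept with the set block, and the part of RNA quality or cell make-up in the members' differences was not tested. The count fell to 6 without activated natural Treg 2, and to 7 without activated natural Treg 3 or natural Treg 1.

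**Figure D3:**
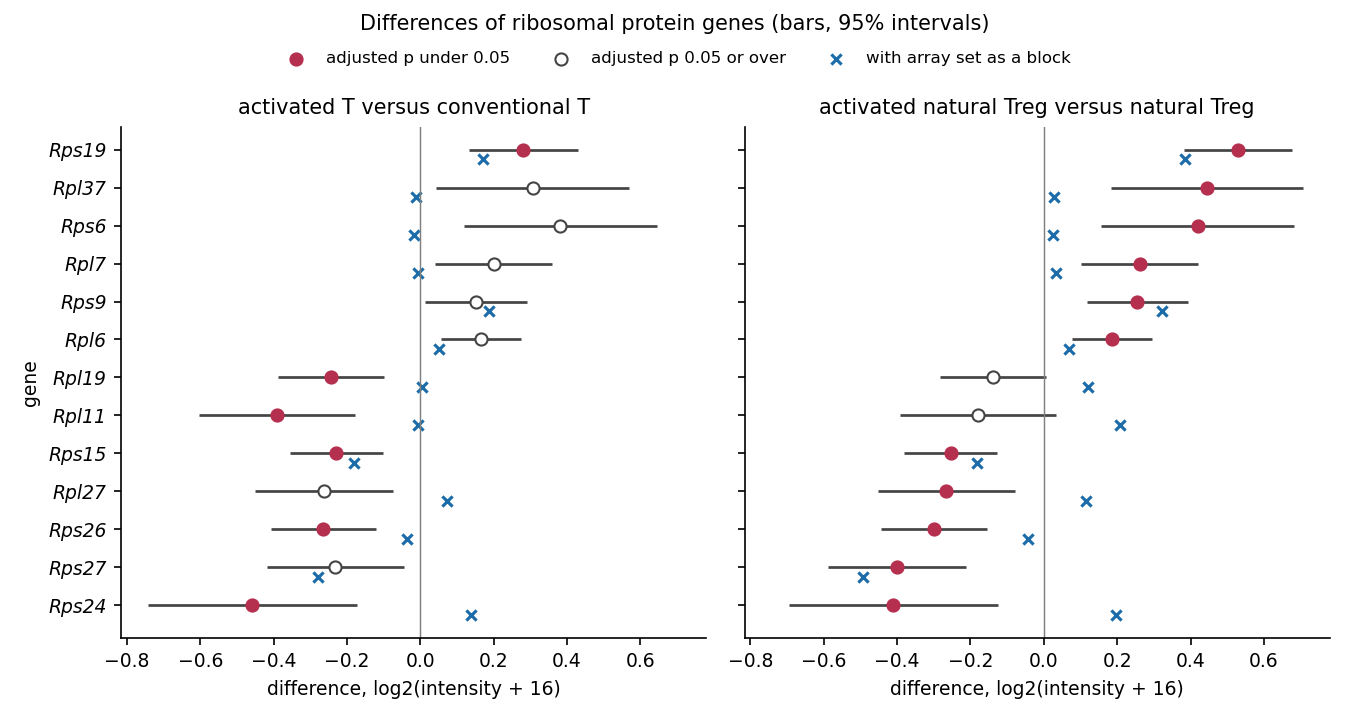
Points are differences in log2(intensity + 16) for the 13 members called in either activation comparison, bars are 95% intervals, filled points passed an adjusted p of 0.05, and crosses are the same difference with the array set as a block. Rps19 lies to the right of 0 in both panels with and without the block (0.53 and 0.38 for natural Treg), while Rps24 lies to the left without it (-0.41) and to the right with it (0.20).

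Rps19 was the member whose values followed the labels most closely, with 84.3% of its variance between label groups and 72.4% between sets. It read 3178, 3217 and 3269 on conventional T, 3597, 4139, 4045 and 3910 on activated T, 3166, 3035, 3082 and 3168 on natural Treg, and 4964, 4567 and 4013 on activated natural Treg. Activated arrays were above unactivated ones in both comparisons. On the other groups it read 3278, 3164, 3537, 3242 and 3529 on induced Treg, 3193, 3156 and 3333 on failed induced Treg, 3319, 3609 and 4034 on induced Foxp3-delta, 3401 and 3851 on natural Foxp3-delta, 3136 and 3063 on induced Treg with IL-2, and 3154 and 3031 on induced Foxp3-delta with IL-2. Natural Foxp3-delta, which the labels give as unactivated, was above all natural Treg and conventional T arrays. Its 2 arrays lie in sets 2 and 3. The set 1 arrays as a whole lay between 3031 and 3278, and the others between 3242 and 4964. Rps19 was measured by 1 probe set, so no second one could be set beside it.

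**Figure D4:**
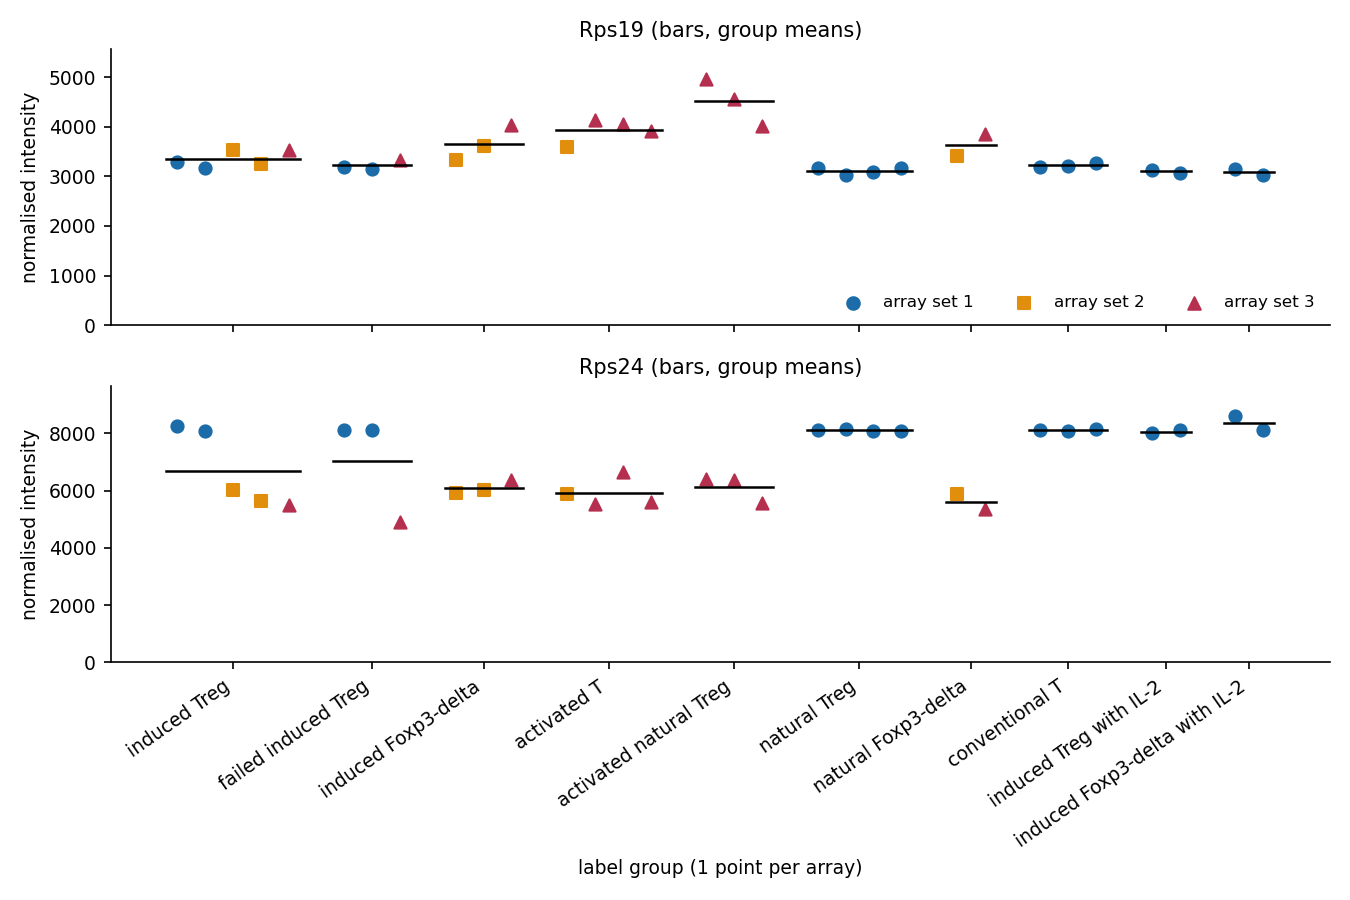
Normalised intensity of Rps19 (top) and Rps24 (bottom) on each array, from 0, with arrays in their label groups, colour and shape for the array set, and bars for group means. Rps19 is highest on activated natural Treg (4013 to 4964), and Rps24 falls into a high set 1 band (8002 to 8609) and a lower band of all other arrays (4900 to 6634), also within the induced Treg and failed induced Treg groups.

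Different probe sets for the same gene often differed in sign, though few genes had probe sets called in both directions. Among the members, 20 genes had more than 1 probe set above the filter, 61 probe sets in all. Fitted one by one, probe sets of 18 of these genes differed in sign for activated T against conventional T, and of 17 genes for activated natural Treg against natural Treg. Many of these differences were near 0, where the sign carries little weight. The share of other genes with mixed signs was not counted, so these counts do not set the members apart. Probe sets were called in both directions in 2 and 3 genes. In the first comparison 4 of all 88 member probe sets were called higher and 7 lower, where 6.43% of all probe sets fitted were called. In the second 11 were called higher and 10 lower, where 15.8% of all were called.

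Rps24 showed the widest gap. Its 5 probe sets, from the brightest (mean 6961) to the dimmest (65.9), differed by -0.46, 0.69, 0.20, -0.46 and -0.29 between activated T and conventional T, and by -0.41, 0.51, 0.36, -0.30 and -0.17 between activated natural Treg and natural Treg. In both comparisons 1 was called higher and 2 were called lower. Rps10, whose brightest probe set was called in neither (0.07 and 0.10), had another called higher (0.45 and 0.44) and another called lower (-0.40 and -0.45). Both belong to a class whose probes can bind related sequences, as do 38 of the 88, among them the called Rps24 probe sets. For Rps15 the chosen probe set differed by -0.23 and -0.25, and a second of like brightness (means 5990 and 5587) by 0.10 and 0.15. Rpl7, higher by 0.26 in activated natural Treg, had a dimmer probe set (mean 1363) also called higher (0.46) and another (mean 4044) at -0.20, not called. Rpl27, lower by -0.27 there, had dimmer probe sets (means 1093 and 930) at 0.18 and -0.02, neither called. Rps9 was an exception, with both of its probe sets above the filter called higher in activated natural Treg (0.26 and 0.60). The second of these was dim (mean 59.7) and of the class that can bind related sequences. A further Rps9 probe set (mean 30.2) was under the filter.

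**Figure D5:**
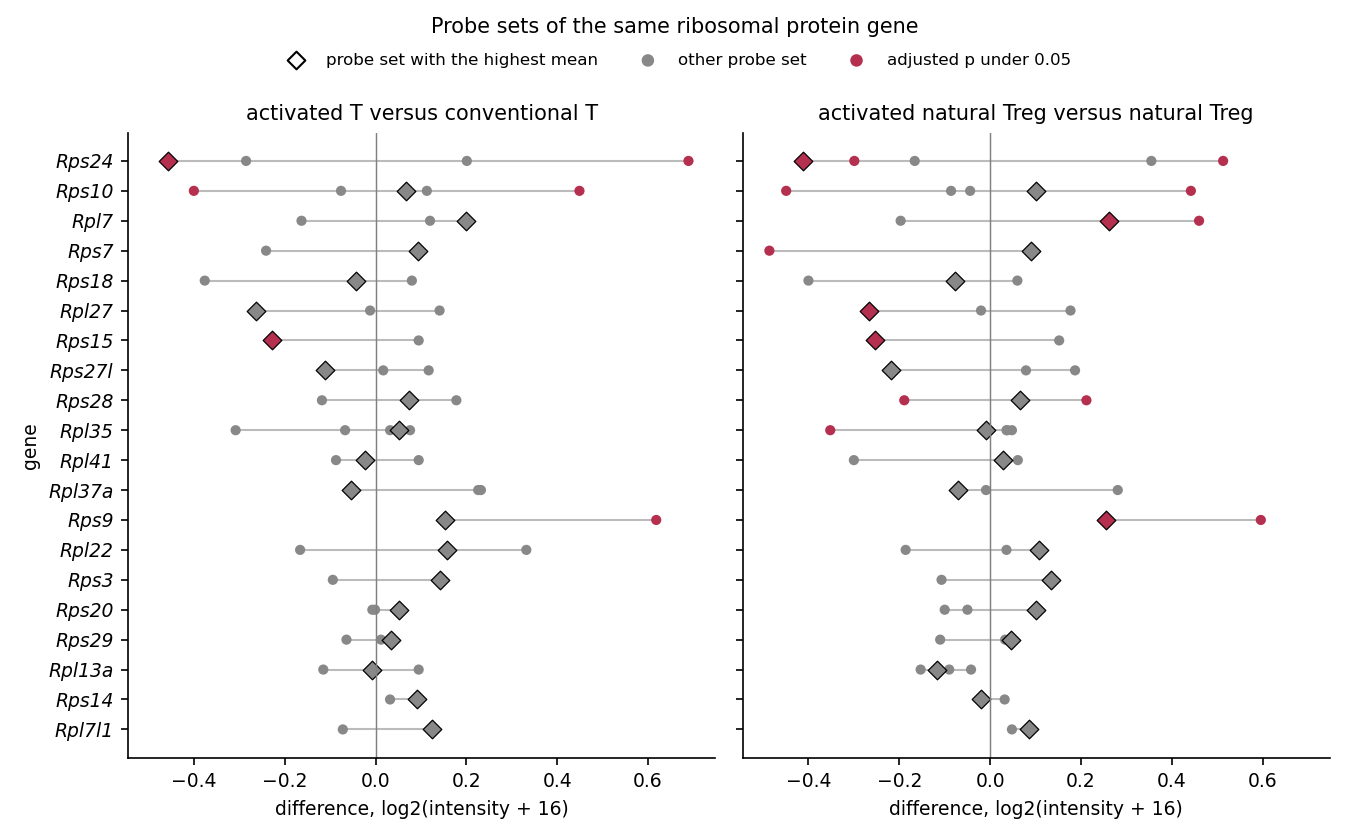
Each symbol is 1 probe set of a member with more than 1 probe set above the filter (20 genes), placed at its difference in log2(intensity + 16); diamonds are the brightest probe set of the gene and red marks an adjusted p under 0.05. Probe sets of Rps24 reach from -0.46 to 0.69 in the left panel, and both red probe sets of Rps9 lie to the right of 0 in the right panel.

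Whether the family as a whole differed was decided by the scaling. With each array scaled to its median in place of quantile normalisation, 36 of 47 members were called higher for activated T against conventional T, and for activated natural Treg against natural Treg 35 were called higher and 1 lower. Genes as bright as the members shifted too, by nearly as much for activated T and by less for activated natural Treg. For the 35 members above 1000 the median difference was 0.77 and 0.95 in the 2 comparisons, and for the 527 other genes of the same range 0.74 and 0.77. Closer in brightness were 136 other genes with means between 5073 and 8785, the middle 50% of these members. Their median was 0.74 and 0.87, and that of 29 neuron, myelin and astrocyte markers 0.76 and 0.84. In both comparisons 35 of these 35 members were higher, as were 527 and 526 of the 527 other genes. Of all 12169 genes tested, 9137 and 7709 were higher under that scaling. The ratio of the 99th percentile to the median of an array was 83.3 to 110.2 in set 1, 121.8 to 158.8 in set 2 and 124.6 to 220 in set 3. The sets were built in part from these 2 measures, so a difference between sets in their ratio is no independent result. The median difference of all genes was 0.17 and 0.09 under array medians. With values as deposited it was -0.36 and -0.53. There the 35 members above 1000 stood at 0.16 and 0.25, and the 527 other genes of their range at 0.13 and 0.07. The 136 genes closer in brightness stood at 0.14 and 0.17, and the 29 neuron, myelin and astrocyte markers at 0.16 and 0.15. The 11 dimmer members stood at -0.48 and -0.56, and the other genes under 1000 at -0.407 and -0.565. That setting called 4 members, all lower, and 11 (2 higher, 9 lower), of which 0 and 3 were among the calls after quantile normalisation. The size of the family's difference, and how many members passed the test, thus depended on the scaling. The share of all genes called under these other scalings is not given here, so the counts do not set the members apart from other genes.

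Induced Treg (5 arrays) against activated T (4 arrays) compares cells that received TGF-beta and switched on the reporter with cells activated without it. Limma called 0 of 47 members, where 0.0493% of all genes tested were called (0.0411% higher, 0.00822% lower), and 5 members had an unadjusted p under 0.05. The smallest adjusted p was that of Rps19 (0.24), which was lower in induced Treg by -0.23 (95% interval -0.36 to -0.10). Rps26 stood at 0.21 (95% interval 0.09 to 0.34, adjusted p = 0.27 by limma). For the median member the 95% interval reached 0.12 on either side of its estimate. Groups did not overlap in 2 of 47 members, against 1.92% of all genes tested. Without activated T 1, 1 member was called lower.

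Culture in IL-2 for 1 week was examined in induced Treg with IL-2 (2 arrays) against induced Treg (5 arrays). Limma called 0 of 47 members, where 2.15% of all genes tested were called (1.01% higher, 1.14% lower), and 6 members had an unadjusted p under 0.05. Rpl6 came nearest, at -0.21 (SE 0.06, adjusted p = 0.054 by limma), with 5400 and 5565 on the IL-2 arrays against 6028, 6134, 6541, 6634 and 6376 on induced Treg. The groups did not overlap, as in 11 of 47 members, against 24.4% of all genes tested. Both IL-2 arrays and the first 2 induced Treg arrays lie in set 1, where the difference of Rpl6 was -0.15 (adjusted p = 0.12 by limma fitted on that set). Rpl10a, which read lower by -0.30, and Rpl11, which read higher by 0.31, had adjusted p of 0.13 and 0.16 by limma. A member was called lower without induced Treg 1 and another called higher without induced Treg 2.

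Over all 10 groups at once, limma's F test called 9 of 47 members, where 13.6% of all genes tested were called. They were Rps19, Rpl11, Rpl6, Rps15, Rps26, Rps24, Rps6, Rps27 and Rps9, with adjusted p from 0.00054 (Rps19) to 0.047 (Rps9). With the set block 0 were called, and Rps19 had an adjusted p of 0.14.

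Duplicate copies of ribosomal protein genes were read beside their parents, each by its brightest probe set. Rpl22, which is required for the development of alpha-beta T cells, and its paralog Rpl22l1 were both bright (means 3669 and 2872). They differed by 0.16 and -0.17 for activated T and by 0.11 and -0.04 for activated natural Treg, none called. Other Rpl22 probe sets read -0.17 and -0.19 (mean 1337) and 0.33 and 0.04 (mean 1060) in the same comparisons, none called. Rps27l, which p53 can switch on, read -0.22 in activated natural Treg (adjusted p = 0.051 by limma) beside -0.40 for Rps27. The other Rps27l probe sets read 0.08 and 0.19 there, not called. Rps4l stood at -0.29 (SE 0.13) beside 0.08 for Rps4x, and Rpl7l1 at 0.09 beside 0.26 for Rpl7. Of these, Rps27 and Rpl7 passed the test. The muscle paralog Rpl3l and the testis paralog Rpl39l were under the filter.

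Other genes of the translation machinery were counted the same way. Ribosome assembly factors, which make and fold ribosomal RNA into subunits, had 5 of 86 tested called for activated T, all higher (5.8%, against 6.75% of all genes tested), among them Noc3l by 0.30, Utp20 by 0.39 and Dkc1, the pseudouridine synthase, by 0.26. For activated natural Treg 20 of 86 were called (23.3%, against 16.7% of all genes tested), 17 higher and 3 lower, with Utp20 at 0.50 and Dkc1 at 0.34 among the higher and Polr1c, a subunit shared by RNA polymerases I and III, at -0.72 among the lower. The median of the list was 0.05 and 0.04 in these comparisons, against 0.006 and 0.005 over all genes tested. None of the 5 and 20 calls was kept with the set block. Noc3l then stood at 0.15, Utp20 at 0.13 and 0.24, Dkc1 at 0.26 and 0.30, and Polr1c at -0.27, with Dkc1 nearest to the threshold (adjusted p = 0.20 and 0.091 by limma).

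Mitochondrial ribosomal proteins had 5 of 76 called for activated T (6.6%, against 6.75% of all genes; 2 higher, 3 lower) and 17 of 76 for activated natural Treg (22.4%, against 16.7%; 5 higher, 12 lower). Mrpl54 was lower by -0.99 in activated T, Mrpl40 by -0.49 and -0.59, and Mrpl52 was higher by 0.29 and 0.20. With the set block none of these calls was kept: Mrpl54 stood at -0.68 (adjusted p = 0.12 by limma), Mrpl40 at -0.006 and -0.09, and Mrpl52 at 0.32 and 0.24. Elongation factors had 0 of 10 called by limma for activated T (4 at an unadjusted p under 0.05) and 5 of 10 for activated natural Treg (50%, against 16.7% of all genes), with Eef1d at 0.40 and Eef1b2 at 0.19 higher and Gspt1, a termination factor on that list, at -0.27. With the set block 0 were called by limma, and these stood at -0.03, 0.12 and -0.05, so that Eef1d turned in sign. Initiation factors had 0 of 29 called by limma for activated T (5 at an unadjusted p under 0.05) and 2 of 29 for activated natural Treg (6.9%, against 16.7% of all genes), Eif1a at 0.48 and Eif3l at -0.43. With the set block neither was called, Eif1a fell short at 0.11 and Eif3l turned to 0.07. Of 6 ribosome-associated genes, Btf3, part of the complex that shields new chains, was lower by -0.65 in activated natural Treg, and stood at -0.28 with the set block (adjusted p = 0.67 by limma).

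In IL-2 culture, where no cytosolic member was called, 5 of 76 mitochondrial ribosomal proteins were (6.6%, against 2.15% of all genes; 3 higher, 2 lower). Mrpl52 was lower by -0.36 and Mrpl39 by -0.30, and both stayed called with the set block (-0.38 and -0.28, adjusted p = 0.0044 and 0.035 by limma). Among the higher, Mrpl35 stood at 0.51, and at 0.30 with the set block. All 3 higher calls were lost with it (adjusted p from 0.075 to 0.12 by limma). Of 29 initiation factors 1 was called (3.4%, against 2.15% of all genes). Pabpc1, the poly(A)-binding protein, whose own message also starts with a C and T run, was lower by -0.27 and by -0.23 with the block (adjusted p = 0.042 by limma). Of 86 assembly factors 2 were called (2.3%, near the 2.15% of all genes). Sbds and Tsr1, assembly factors of the large and the small subunit, were lower by -0.28 and -0.27, with adjusted p of 0.020 and 0.053 by limma under the set block. None of these lists had a member called for induced Treg against activated T by limma, where 12 mitochondrial ribosomal proteins and 5 assembly factors had an unadjusted p under 0.05.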

How the data were processed

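Biotin-labelled RNA of 31 samples was hybridised to Affymetrix arrays, 1 per sample, per the labels. The authors deposited a linear intensity for each probe set. Their probe summary, background correction and scaling are not given in the sources used. Deposited array medians ran from 22.2 to 55.4, and precision is limited by how few arrays each group holds. Of 45101 probe sets, 34945 carried 1 symbol in the platform annotation, 932 carried several and were not named, and 64 were controls. Each gene took its probe set of highest mean. Values were quantile normalised, converted to log2(intensity + 16) and fitted by limma (3.58.1, R 4.3.3, lmFit and eBayes) with 1 mean per label group across all 31 arrays, after a filter (above 39.82 on at least 2 arrays), with Benjamini-Hochberg adjustment over 12169 genes, called at 0.05. The script was tested on simulated data. Array sets came from Ward clustering. Named members were the 5 of largest and 3 of smallest SD, Rplp0 (these with values on the arrays of the activation comparisons), and, per comparison, up to 6 called per direction by adjusted p. Paralogs were read beside parents, and of other lists up to 3 called genes were named. Rps10 and Rpl10a were named after their values were seen. Members and lists were chosen with earlier results of these data known. Same-numbered arrays of compared groups correlated between -0.09 and 0.11 in their deviations, so the numbers were not taken as pairs. Start sites came from RefSeq (GRCm38.p6).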

Additional observations from a re-analysis of the deposited data

Results flagged for a closer look

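In groups of 4 or 5 arrays, 57 combinations of a named member (or the family median) and a group were examined for 1 array far from the others by Dixon's ratio, and 4 stood out. Chance alone gives about 1 in 20. Rps28 read 6323 on natural Treg 4, against 5909 to 5965 on the other natural Treg arrays. Rps15 read 6565 on natural Treg 1, against 6240 to 6269. Rpl19 read 9399 on natural Treg 3, against 9621 to 9654. Rpl27 read 3747 on activated T 1, the activated T array that lies in set 2, against 3275 to 3286 on the activated T arrays of set 3.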

How the results depend on the processing

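Called members numbered 6 (activated T against conventional T), 11 (activated natural Treg against natural Treg), 0 (induced Treg against activated T), 0 (IL-2) and 9 (any group). Array medians gave 36, 36 and 34 in the first, second and last, array 75th percentiles 29, 37 and 33, and the array set block 0, 1 and 0. Values as deposited gave 13 for induced Treg and 25 for any group. For these scalings the share of all genes called is not given here, so the counts do not set the members apart. Leaving out probe sets of the _x_at and _s_at classes gave 7 for activated natural Treg. For IL-2, a pseudocount of 64, no filter, the mean of probe sets, and array set 1 alone (added after seeing the data) each gave 1. Leaving out 1 array at a time gave 0 to 8, 6 to 10, 0 to 1, 0 to 1 and, by replicate number, 0 to 11. Differences reversed as follows. For activated T, array medians gave Rpl11 0.37, Rpl19 0.47, Rps15 0.52, Rps24 0.28 and Rps26 0.50, array 75th percentiles 0.27, 0.36, 0.42, 0.18 and 0.40, and the set block Rpl19 0.004 and Rps24 0.14. For activated natural Treg, array medians gave Rpl27 0.41, Rps15 0.60, Rps24 0.45 and Rps26 0.44, array 75th percentiles 0.40, 0.60, 0.44 and 0.43, values as deposited Rpl37 -0.20 and Rps6 -0.17, no _x_at or _s_at probe sets Rpl7 -0.20, and the set block Rpl27 0.11 and Rps24 0.20. With the replicate number as a block, 5, 12, 0, 0 and 11 members were called, and the numbers were not taken to pair the arrays. The cause of the scaling differences was not tested.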
